A study of Mus musculus with 6 samples.

Results

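Messages of the tubulin genes were counted in 6 libraries from mouse oocytes in the germinal vesicle (GV) stage, the arrested stage before the meiotic spindle forms. The 10 genes described are 4 alpha tubulins (Tuba1a, Tuba1b, Tuba1c and Tuba4a), 5 beta tubulins (Tubb2a, Tubb2b, Tubb3, Tubb4b and Tubb5) and the gamma tubulin Tubg1. They were chosen by gene symbol from a table of 25239 genes, and all 10 were present in it. Of these, 9 passed the filter on low counts that kept 4644 genes, and Tuba1a did not.

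The 3 water libraries came from oocytes microinjected with water, and the 3 phthalate libraries from oocytes microinjected with a mixture of phthalate metabolites, the breakdown products of a class of plasticizers. All oocytes came from CD-1 female mice, an outbred stock, aged 4 to 6 weeks. They were injected inside their cumulus-oocyte complexes and cultured in a maturation medium that held serum, follicle-stimulating hormone and pyruvate, with no dose, composition of the mixture or culture time given in the sources used here. No uninjected oocyte was among the samples. The labels name no animal or culture, and their protocol can be read as 1 oocyte for each group, so each group counts as 1 sample. No difference between groups was tested, and the spread between the libraries of a group may be technical.

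Alpha and beta tubulin form the dimer from which microtubules are built, and gamma tubulin sits in the ring complex from which microtubules start to grow. Mammals have several genes for alpha and for beta tubulin, whose proteins (isotypes) are nearly alike over most of their length and differ most in the acidic tail at the carboxy end. The fully grown oocyte holds a store of tubulin messages and protein, and it later builds the meiotic spindle from it without centrioles. Tubulin messages also limit their own amount: TTC5 binds the first residues of a nascent alpha or beta tubulin and starts decay of the message when free dimers are plentiful.

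The coding ends are shown first, because they encode the tail in which the isotypes differ, which bears on how reads could be assigned to the genes. Sequences were taken from GENCODE M21 transcripts (GRCm38, the mm10 assembly that the submitters' processing notes name). Each line gives the last 60 bases of the coding strand, 5′ to 3′, stop codon included. Capitals mark bases that were not the same in all members of the class in an alignment of the whole coding sequences.
Tubb4b: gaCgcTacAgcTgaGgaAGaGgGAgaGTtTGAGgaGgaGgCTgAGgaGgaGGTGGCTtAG
Tubb3: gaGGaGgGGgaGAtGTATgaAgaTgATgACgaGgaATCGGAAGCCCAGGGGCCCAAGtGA
Tubb2a: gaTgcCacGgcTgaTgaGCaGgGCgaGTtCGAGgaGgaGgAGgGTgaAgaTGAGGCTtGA
Tubb2b: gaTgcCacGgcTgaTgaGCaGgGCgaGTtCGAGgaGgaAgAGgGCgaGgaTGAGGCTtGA
Tubb5: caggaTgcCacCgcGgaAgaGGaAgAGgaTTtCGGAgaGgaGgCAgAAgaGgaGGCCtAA
Tuba4a: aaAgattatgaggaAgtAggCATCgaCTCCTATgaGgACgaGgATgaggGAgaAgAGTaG

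In Tubb3, 70.0% of these 60 bases were not shared by all 5 beta tubulins, against 26.7% of the rest of its coding sequence. Tubb4b had 53.3% in its end and 26.6% in the rest. Tubb2a and Tubb2b differed at 3 of the 60 bases. Over the whole coding sequence Tubb2a and Tubb2b were 96.5% identical, Tuba1a and Tuba1b 98.3%, Tuba1b and Tuba1c 97.9% and Tuba1a and Tuba1c 97.1%. Tuba4a was from 84.7% to 85.3% identical to the Tuba1 genes. The other pairs of beta tubulins lay between 81.5% and 84.6%.

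The start of the coding sequence is shown for 1 gene of each class, with codons 2 to 4 in capitals. In the alpha and beta lines it encodes the first residues, to which TTC5 binds, and the gamma line is given beside them.
Tuba4a: atgCGCGAGTGCatt
Tubb4b: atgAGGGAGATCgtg
Tubg1: atgCCGAGAGAAatc

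Shared sequence set a limit on these counts, since how the authors assigned reads that match several genes is not given in the sources used here. In Tuba1b, 57.9% of all windows of 150 bases (the length of 1 read) occurred exactly in another annotated gene, and the shares were 54.7% in Tuba1a and 46.7% in Tuba1c. The partners of these 3 genes were one another, pseudogenes and Gm49450, an annotated gene that overlaps Tuba1a and Tuba1b on the same strand. Of the Tubb2a windows, 27.9% also lay in Tubb2b, and of the Tubb2b windows 20.1% also lay in Tubb2a. Tubb4b shared 16.8% with the pseudogene Tubb4b-ps1, and Tubg1 0.907% with Tubg2. Tubb3 and Tubb5 shared none at that length. In Tuba4a, 45.7% of the windows lay in Stk16, a kinase gene on the opposite strand, which was listed at 0 counts in all 6 libraries. Tubb4b is overlapped on the opposite strand by Fam166a, also at 0 in all 6 libraries, by 121 bases of exon. Tubb3 lies on the same strand inside an intron of the annotated gene Gm20388, whose exons cover 0 of its 1868 exon bases. Values of Tuba1a, Tuba1b, Tuba1c, Tubb2a and Tubb2b are therefore uncertain as single genes, and their sums are given as well. The value of Tuba4a is uncertain too, since how reads in the overlap with Stk16 were counted is not given.

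**Figure D1:**
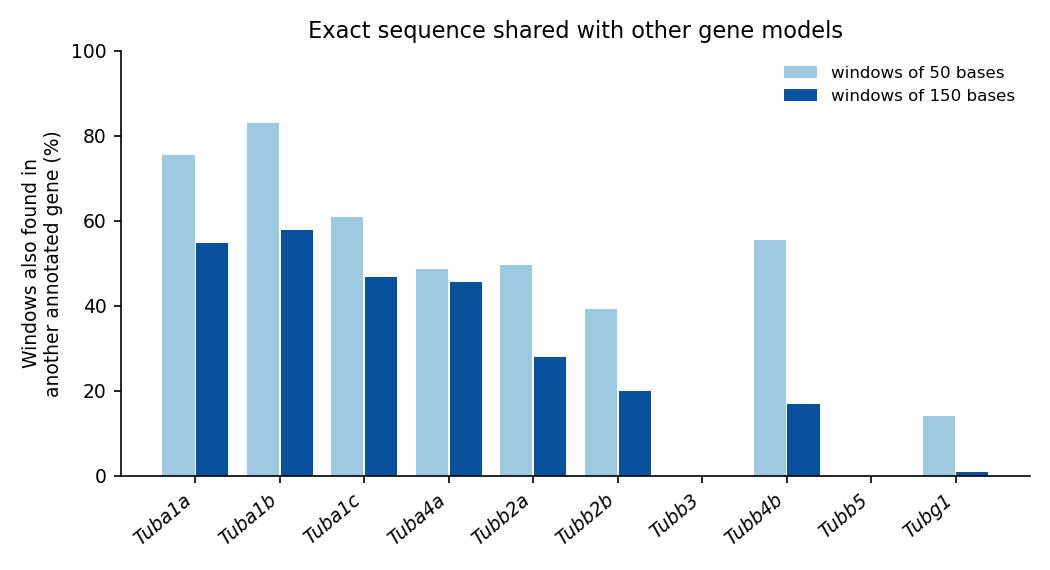
Share of windows of 50 and of 150 bases in each tubulin transcript (x axis) that occur exactly, on either strand, in another annotated gene (y axis, percent). Tuba1a, Tuba1b and Tuba1c share most with other tubulin genes and pseudogenes, the bar of Tuba4a is its overlap with Stk16, and Tubb3 has no shared window at either length.

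The libraries held from 252267 to 300917 gene counts. Of 12 oocyte markers (among them Gdf9, Zp3 and Padi6) all had counts, and together they took 3.17% of the counts in water and 3.07% in phthalate. Of 20 cumulus and granulosa markers 8 had any count, with a sum of 13 to 37 per water library and 10 to 24 per phthalate library, most of it Nr5a2. Amh, Amhr2 and Foxl2 were at 0. Of 8 theca and stroma markers 2 had counts, 6 in water and 0 of 822225 in phthalate, which allows a share of up to 0.000365% (3 counts of the total), and of 8 blood and endothelial markers 2 had counts, nearly all of them Pecam1. Their part in the tubulin values was not tested. Every pair of libraries differed by more than sampling noise (chi-square per degree of freedom from 1.16 to 2.39 on counts halved to read pairs), and none was treated as a copy.

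The 10 tubulins together had 1540, 1248 and 1279 counts in water libraries 1, 2 and 3 and 1069, 1215 and 1384 in phthalate libraries 1, 2 and 3. Summed over the libraries they took 0.476% of the counts in water (95% exact binomial interval 0.462 to 0.491) and 0.446% in phthalate (0.432 to 0.461). Intervals cover counting error only, and they are too narrow, because from 68.0% to 71.1% of the small counts of a library (1 to 20) were even, as when both mates of a read pair are counted. For that reason the intervals of ratios below are given for counts halved to read pairs. Rn45s, the ribosomal RNA precursor, took 2.02% to 2.35% of the counts in water and 2.89% to 3.54% in phthalate, and without it the tubulin shares were 0.487% and 0.461%. Water library 1 and phthalate library 3 were the highest of their groups and the other 4 libraries lay close together, so the groups overlapped.

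Levels are given in CPM, gene counts scaled to a library total of 1000000 after scaling with TMM factors (a correction for differences in library composition), and levels of different genes are compared per kilobase of annotated exon. CPM is relative to all other messages and is not an amount per oocyte.

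Tubb4b (chr2:25222160-25224702, minus strand), a beta tubulin made in many tissues, was the most abundant member. It ranked 43 of all genes by mean CPM. Its level was 2493, 1783 and 2112 CPM in the water libraries and 1662, 1714 and 2428 CPM in the phthalate libraries. Per length it stood at 973 CPM per kb (SD 176 over 6 libraries), and its lowest library lay above the highest of every other member. Water library 1 and phthalate library 3 were high and phthalate libraries 1 and 2 low, and the groups overlapped.

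The log2 ratio of phthalate over water for Tubb4b was -0.14 (95% read-pair interval -0.28 to -0.0032), from 1823 and 1571 counts. Without water library 1 it was -0.011, without water library 2 it was -0.26 and without phthalate library 3 it was -0.33. The variance of its libraries within groups was 10.5 times that of counting read pairs alone. The median of that ratio of variances was 2.25 over 448 genes whose mean count was 100 or more, with quartiles at 1.07 and 4.95.

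Tubb3 (chr8:123411424-123422015, plus strand), the beta tubulin known as a neuronal marker, was the second beta tubulin. It had 781, 574 and 497 CPM in water and 506, 474 and 611 CPM in phthalate, or 307 CPM per kb (SD 60.8) over all libraries. No window of its transcript, of 50 or of 150 bases, occurred exactly in a transcript of another annotated gene, Gm20388 included. The log2 ratio was -0.22 (-0.49 to 0.042), and without water library 1, the highest, it was -0.020.

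Tubb2a (chr13:34074274-34078007, minus strand) and Tubb2b (chr13:34126748-34130466, minus strand) are neighbouring genes for a pair of nearly identical beta tubulins. Tubb2a had 392, 316 and 420 CPM in water and 282, 358 and 595 CPM in phthalate. Its log2 ratio was 0.12 (-0.20 to 0.45) and turned to -0.22 without phthalate library 3, in which it was highest. Tubb2b had 259, 279 and 176 CPM in water and 205, 146 and 218 CPM in phthalate, with a log2 ratio of -0.35 (-0.80 to 0.091). Both genes overlapped between groups, and their ratios had opposite signs. Summed, the pair had 651, 594 and 596 CPM in water and 487, 504 and 813 CPM in phthalate, a log2 ratio of -0.042 (-0.30 to 0.22).

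Tubb5 (chr17:35833921-35838306, minus strand), a widely expressed beta tubulin, was the lowest beta tubulin among the members per length, at 54.9 CPM per kb (SD 7.39). It had 162, 154 and 212 CPM in water and 213, 176 and 179 CPM in phthalate. The groups overlapped, and the log2 ratio was 0.10 (-0.38 to 0.58). The variance of its libraries within groups was 0.54 times that of counting read pairs alone, the lowest such ratio of the 10 genes.

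Within the beta class Tubb4b held about the same part in every library, between 49.5% and 53.7% of the level per length. All 8 annotated beta tubulins entered these shares. Tubb4b made up 52.2% ± 2.34 (SD, n = 3 libraries) of the class level per length in water and 51.5% ± 1.04 (SD, n = 3 libraries) in phthalate. Tubb3 made up 16.9% ± 2.41 and 16.0% ± 1.26, Tubb2a 12.0% ± 1.59 and 13.9% ± 2.74, Tubb2b 5.39% ± 1.51 and 4.64% ± 0.871, and Tubb5 2.75% ± 0.603 and 3.27% ± 0.820. Tubb6, which is not one of the 10 genes, made up most of the remainder, with 10.8% ± 0.852 and 10.7% ± 1.02. Each isotype differed between the groups by less than the larger SD of the 2 groups.

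**Figure D2:**
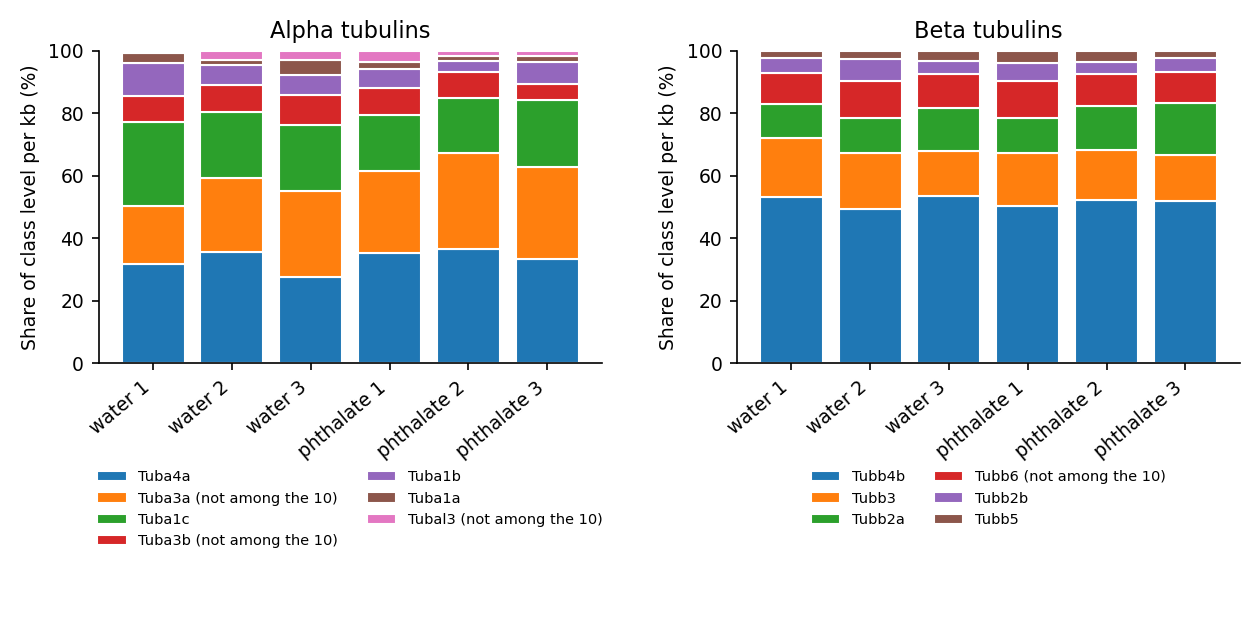
Share of each gene in the summed level per kb of its class (y axis, percent) in each of the 6 libraries (x axis), for alpha tubulins (left) and beta tubulins (right). Tubb4b is close to 50% of the beta level in every library, and Tuba4a and Tuba3a hold a larger part of the alpha level in the phthalate means than in the water means.

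Among the alpha tubulins Tuba4a (chr1:75214228-75219865, minus strand), an isotype whose coding sequence ends without a tyrosine codon, was the most abundant. It had 820, 692 and 606 CPM in the water libraries and 870, 819 and 860 CPM in the phthalate libraries. The phthalate libraries lay within a narrow range, and water libraries 2 and 3 lay below all of them. Water library 1, at 820.3 CPM, was just above the lowest phthalate library, at 818.7, so the groups overlapped by that margin. With scaling factors from all genes with a count, unfiltered, the order turned, with 807.7 CPM in that water library and 820.3 in the lowest phthalate library. The log2 ratio was 0.27 (0.039 to 0.49), from 606 and 693 counts, and it ranged from 0.17 to 0.39 with each library left out in turn. Tuba4a was the only member whose read-pair interval lay wholly above 0. That interval covers counting error only, and the share of all genes with such an interval was not counted. The overlap with Stk16 on the opposite strand applies to this value.

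Tuba1c (chr15:99029891-99038110, plus strand) had 425, 255 and 286 CPM in water and 271, 245 and 339 CPM in phthalate. Tuba1b (chr15:98931425-98934565, minus strand), a widely expressed alpha tubulin, had 137, 60.4 and 70.5 CPM in water and 77.3, 39.8 and 89.5 CPM in phthalate. Tuba1a (chr15:98949837-98953703, minus strand), the main alpha tubulin of developing neurons, had 11, 5 and 14 counts in water and 7, 5 and 6 in phthalate, below the filter. All 3 overlapped between groups. Their log2 ratios were -0.18 (-0.55 to 0.19) for Tuba1c, -0.39 (-1.16 to 0.35) for Tuba1b and -0.66 (-2.04 to 0.62) for Tuba1a. Without water library 1, the highest for Tuba1c and Tuba1b, their ratios turned to 0.071 and 0.047. Tuba1a ranged from -1.01 without water library 2 to -0.34 without water library 3. Summed, the 3 neighbouring genes had 601, 332 and 406 CPM in water and 375, 302 and 451 CPM in phthalate, a log2 ratio of -0.25 (-0.57 to 0.062).

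Per length, Tuba4a made up 31.8% ± 4.00 (SD, n = 3 libraries) of the alpha class in water and 35.2% ± 1.59 (SD, n = 3 libraries) in phthalate. Tuba1c made up 23.1% ± 3.15 and 19.0% ± 2.04, Tuba1b 7.67% ± 2.44 and 5.53% ± 1.78, and Tuba1a 3.19% ± 1.43 and 1.88% ± 0.370. Tuba3a, outside the 10 genes and known as a testis alpha tubulin, took 23.1% ± 4.41 and 28.7% ± 2.21. Its 178 counts in water and 231 in phthalate gave a log2 ratio of 0.45. Its level was 129, 122 and 161 CPM per kb in water and 174, 185 and 204 in phthalate, without overlap, as in 10.1% of the filtered genes. Its paralog Tuba3b took 8.97% ± 0.695 and 7.41% ± 1.78, and its 82 counts in water and 70 in phthalate gave a log2 ratio of -0.16 (-0.85 to 0.53), with overlap. Tuba3a shared 2.65% of its windows of 150 bases and 35.3% of those of 50 bases with other genes, led by Tuba3b. The means of the share of Tuba1c and Tuba3a differed between the groups by more than the larger of the 2 SDs. Those of Tuba4a, Tuba3b, Tuba1b and Tuba1a differed by less. Shares within a class depend on one another, and no background over all genes was computed for them. In share of the class the libraries of both genes overlapped, with Tuba1c at 21.2% in water library 3 and 21.3% in phthalate library 3, and Tuba3a at 27.3% in water library 3 and 26.2% in phthalate library 1.

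The summed beta level per length was 3.22, 3.30 and 3.19 times the summed alpha level in water libraries 1, 2 and 3. In the phthalate libraries it was 2.39, 2.60 and 3.22 times. Phthalate libraries 1 and 2 lay below all water libraries and phthalate library 3 lay among them. Annotated exon lengths and shared sequence enter this ratio, so it describes these counts and is not a ratio of molecules.

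Tubg1 (chr11:101119938-101126419, plus strand) encodes the gamma tubulin of most dividing cells. It had 9, 18 and 23 counts in water and 5, 12 and 11 in phthalate, or 32.4, 60.4 and 81.1 CPM against 19.3, 39.8 and 42.8 CPM. The groups overlapped through water library 1. The log2 ratio was -0.76 (-1.82 to 0.24), from 50 and 28 counts. With 1 library left out, the ratio ranged from -1.04 without water library 1 to -0.45 without water library 3. At 20.3 CPM per kb (SD 9.64) it stood below its paralog Tubg2, which had 73.8 CPM per kb (SD 13.95).

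**Figure D3:**
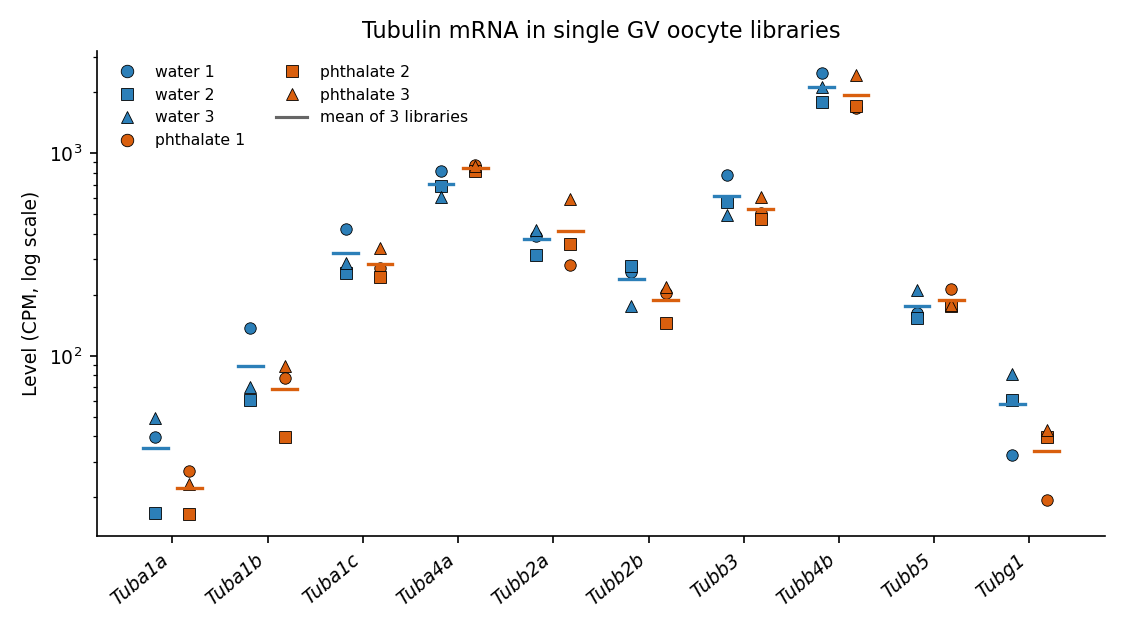
Level of each tubulin (x axis) in CPM on a log axis (y axis), with 1 point per library, water in blue and phthalate in orange, and a line at the mean of the 3 libraries. The points of the groups overlap for all 10 genes, and those of Tuba4a only through water library 1.

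Ordered per length, the members ran from Tubb4b through Tubb3, Tubb2a, Tuba4a, Tuba1c, Tubb2b, Tubb5, Tuba1b and Tubg1 to Tuba1a. With lengths of the longest transcript Tuba4a, at 274 CPM per kb, came before Tubb2a, at 245, and the rest of the order was the same. Per kilobase of annotated exon, only Tubb4b stood apart from the next gene over all libraries. Every other pair of neighbours had overlapping ranges. Tuba4a was above Tuba1c, Tubb2b above Tubb5 and Tuba1b above Tubg1 within each of the 6 libraries.

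The mean CPM of the groups differed by more than the larger of the 2 SDs for 1 of the 9 filtered members, Tuba4a, with 706 CPM (SD 108) in water and 849 CPM (SD 27.0) in phthalate. Of the filtered genes 21.7% differed by that much. Across the 10 genes the log2 ratio was below 0 for 7 genes and above 0 for Tuba4a, Tubb2a and Tubb5, with a median of -0.20. Over the 4644 filtered genes the median was 0.0089 and 48.8% of the ratios were below 0, against 6 of the 9 filtered members. Of the 9 filtered members, 1 (Tubg1) was at least 1.5-fold lower in phthalate and 0 were at least 1.5-fold higher. The same fold was passed toward water by 8.14% of the filtered genes and toward phthalate by 6.96%, or 15.1% in either direction. Tuba1a passed it too, from 30 and 18 counts. For 0 of the 10 genes were the libraries of the groups free of overlap in CPM, against 10.1% of the filtered genes and 6.7% of the genes below the filter that had a count. Among the 448 genes whose mean count was 100 or more, 1.34% passed 1.5-fold and 10.7% were free of overlap, and the 4 members of that depth (Tubb4b, Tuba4a, Tubb3 and Tubb2a) did neither. For the 10 genes summed, the log2 ratio was -0.077 (-0.17 to 0.015), and it was 0.051 without water library 1 and 0.014 without phthalate library 2.

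**Figure D4:**
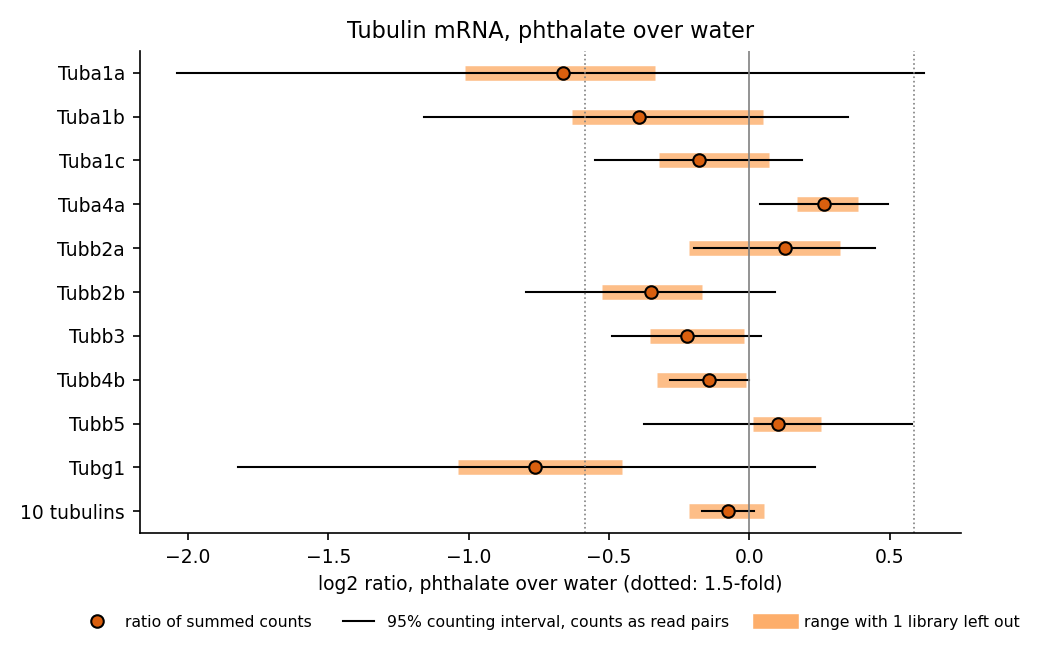
Log2 ratio of phthalate over water (x axis) for each tubulin and their sum (y axis), with the 95% counting interval of read pairs as a line and the range with 1 library left out as a band. The intervals of 8 genes and of the sum include 0, that of Tuba4a lies above it and that of Tubb4b reaches from -0.28 to -0.0032. The share of all genes whose interval excludes 0 was not counted.

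**Figure D5:**
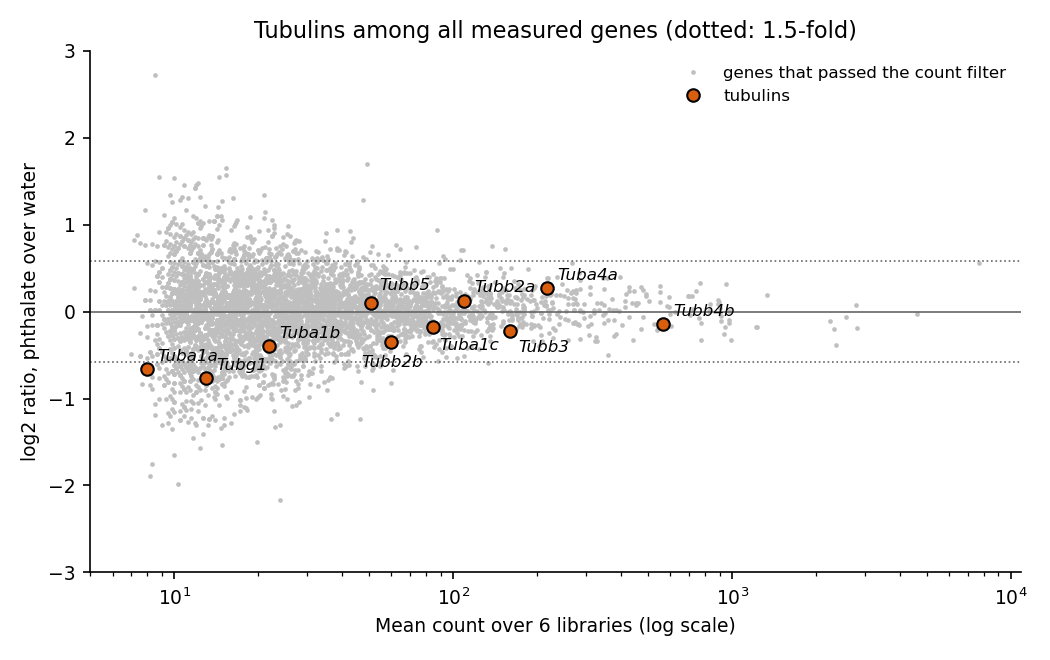
Log2 ratio of phthalate over water (y axis) against the mean count on a log axis (x axis) for 4644 filtered genes in grey and the 10 tubulins in orange. The tubulins lie inside the cloud of genes, and the members beyond 1.5-fold, Tubg1 and Tuba1a, have the lowest mean counts of the 10.

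The Pearson correlation of log2 CPM over the 6 libraries was above 0 in 30 of the 45 pairs of members and below 0 in 15, with a median of 0.21. It was highest, at 0.93, for Tuba1b with Tuba1c, followed by 0.90 for Tuba1c with Tubb3 and 0.90 for Tuba1c with Tubb4b. It was lowest, at -0.88, for Tuba4a with Tubg1, followed by -0.58 for Tubb3 with Tubb5 and -0.56 for Tubb2b with Tubb5. For Tuba4a it was 0.020 with Tubb4b and 0.25 with Tubb3. These values share the library scaling, and for the Tuba1 genes the sequence. Correlations over pairs of other genes were not computed, so the values have no background. Tubg1 had from 5 to 23 counts a library, and its log2 ratio was opposite in sign to that of Tuba4a. Among 447 other genes whose mean count was 100 or more, the levels most like those of Tubb4b were those of Dynll1, a light chain of dynein (r = 0.90), Chchd2, a mitochondrial protein gene (r = 0.90), and Khdc3, a gene of the subcortical maternal complex (r = 0.89), each over 6 libraries and given as a description.

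Other genes of the tubulin system were followed through 6 lists with 71 genes, all in the table. A mean count of at least 20 was reached by 18 of them, and of these 0 were at least 1.5-fold higher and 0 at least 1.5-fold lower in phthalate, where 4.02% and 4.09% of 2784 genes of that depth passed, or 8.12% in either direction. The median log2 ratio was -0.11 over the 18 genes and 0.016 over the 2784.

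Among the other tubulins 4 of 10 reached that depth, led by Tubb6 with 439 and 376 counts and a log2 ratio of -0.15. Tuba8 and Tubb1, isotypes of few tissues, were at 0 in all libraries. Of 12 genes of the gamma tubulin ring complex and its anchors 2 reached it, led by Pcnt, the pericentrin scaffold of microtubule organizing centres, with 531 counts in either group. Of 8 subunits of augmin, which starts microtubules from existing ones, 3 reached it, led by Haus4 with 129 and 155 counts and a log2 ratio of 0.34.

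Of 13 folding factors, which take new tubulin through folding and dimer assembly, 7 reached it, led by Pfdn5 with 297 and 252 counts and a log2 ratio of -0.16. Of 26 genes of enzymes that add or remove tubulin modifications 2 reached it, led by Ttll11, a polyglutamylase gene, with 98 and 116 counts and a log2 ratio of 0.32. Neither autoregulation gene reached it. Scaper, which acts with TTC5 in tubulin message decay, had 37 and 34 counts, and Ttc5 itself had 26 and 18, with 9, 8 and 9 counts in the water libraries and 8, 6 and 4 in the phthalate libraries.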

How the data were processed

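Smart-seq3 libraries (oligo(dT)-primed, template-switched cDNA amplified by PCR) were sequenced as 150-base pairs, per the labels' protocols. The authors' deposited table holds raw counts for each gene symbol and for 92 ERCC spike-ins, which were left out here. The submitters' processing notes name mm10, cutadapt, Trimmomatic, HISAT2 and DESeq2. The counting tool, annotation and use of strand and molecular identifiers are not given in the sources used here.

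Genes were filtered with filterByExpr (minimum count 10, minimum total 15) and scaled with TMM (edgeR 4.0.16, R 4.3.3). A ratio divides summed counts by summed scaled totals, with an exact (Clopper-Pearson) 95% interval. The step was checked on simulated counts that held counting noise alone. That check does not bear on spread between libraries or on counting both mates of a pair. DESeq2 1.42.0 size factors served as an alternative. Exon lengths, windows and coordinates came from GENCODE M21, using for each gene the transcript with the longest coding sequence (the longer transcript where equal). MAFFT 7.526 aligned coding sequences and Biopython 1.88 gave identities.

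The members, lists and the rules for naming genes (all members, the highest gene of each list, those past 1.5-fold at a mean count of at least 20, and the 3 genes most like the top member) were chosen with earlier results of these data known. Protein sequences were not used here. The coding ends of some alpha tubulins are not reported here.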

Additional observations from a re-analysis of the deposited data

How the results depend on the processing

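Of 110 recomputed log2 ratios (10 genes and their sum), 101 stayed inside the counting interval of the deposited counts and 9 left it, all with a library left out. The sign turned in 5 of the 110, for Tuba1b, Tuba1c and the sum without water library 1, for the sum without phthalate library 2 and for Tubb2a without phthalate library 3. Halving counts to read pairs changes only the interval and is not among them. Leaving out 1 library gave -0.22 to 0.051 for the summed ratio, 0 to 3 genes past 1.5-fold and 1 or 2 genes without overlap. In the reported values these counts were 2 and 0. The genes past 1.5-fold were then drawn from Tuba1a, Tuba1b and Tubg1, and Tuba4a was free of overlap in 5 of the 6 cases, all but the one without water library 3. With 1 library left out, 18.8% to 22.1% of the filtered genes passed 1.5-fold and 18.3% to 24.2% were free of overlap, against 15.1% and 10.1% with all libraries. For Tuba4a both libraries that overlap, water 1 and phthalate 2, stayed in 3 of the 5 cases, where the recomputed scaling alone ended the overlap. Without the gene filter (an alternative chosen after the data were seen) 1 gene, Tuba4a, was free of overlap, against 7.97% of all 12804 genes with a count. A fold of 2 left 0 genes, and means of log2 CPM left 1 past 1.5-fold. In these cases the choice of cutoff or of measure sets the change, and the shares of all genes were not counted. Lengths of the longest transcript in place of all exons raised Tubb4b to 56.2% of the beta level in water and 55.6% in phthalate. No paired analysis was possible because the ratios come from no test, and the labels tie no replicate number to an animal or culture. Depth limits Tuba1a and Tubg1 most, with mean counts of 8 and 13.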

Other observations

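Tubd1, which encodes delta tubulin, a tubulin linked to centrioles, was chosen once its counts had been seen. It had 10, 0 and 10 counts in the water libraries and 8, 16 and 27 in the phthalate libraries. The log2 ratio was 1.42 (95% read-pair interval 0.32 to 2.64) at a mean count of 11.8. Phthalate libraries 2 and 3 were high and phthalate library 1 lay among the water values. Of the 71 other genes of the tubulin system, 30 passed the filter, and 2 of these, Tuba3a (higher in phthalate) and Tbcb (lower), were free of overlap in CPM, against 10.1% of the filtered genes. Tbcb, a folding factor that acts on alpha tubulin, was chosen in the same way as Tubd1. It had 86, 77 and 66 counts in water and 53, 59 and 54 in phthalate, with a log2 ratio of -0.39 (-0.82 to 0.028). Below the filter 3 of the 32 listed genes with a count were free of overlap, all lower in phthalate, against 6.7% of all genes below it with a count. They were named once their counts had been seen. Tbcd, another folding factor, had 6, 10 and 8 counts in water and 0, 2 and 0 in phthalate. Its log2 ratio was -3.51 (95% read-pair interval -8.93 to -0.76) at a mean count of 4.33. Ttll1 had 16 counts in water and 3 in phthalate, and Svbp had 17 and 10. Their intervals included 0, from -6.34 to 0.20 for Ttll1 and from -2.63 to 1.07 for Svbp.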
